A study of Mus musculus with 2 samples.

Results

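Forkhead, SOX, GATA and MSX genes encode 4 families of DNA-binding proteins, and 46 genes whose symbols carry these family names were found among the 14678 genes of the deposited table. The rule used the symbol alone and no measured value. It took 26 forkhead genes, 13 SOX genes, 4 GATA genes and 3 MSX genes, and 2 of them, Foxl2os and Msx1as, are noncoding RNAs named after the neighbouring gene. Both groups of mice were double transgenic, VEGFtetO/tetO/beta-AKtg/wt, with tet operators in the VEGF promoter and a tetR-Krab repressor driven in all tissues by the beta-actin promoter. Dox+ females ate doxycycline chow, which releases the repressor and keeps VEGF normal. Dox− littermates were raised on the same chow and then kept without doxycycline for weeks before sampling, so that VEGF was repressed. Young adult females were mated with VEGFtetO/tetO males, and the uteri were taken at G2.5, gestation day 2.5, before implantation. Total RNA of 3 uteri was pooled for each condition and sequenced as 1 library of digital gene expression (DGE) tags. The chow, the VEGF level and ovulation, which the paper reports as lower in Dox−, differ together between the groups and cannot be told apart.

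The copy number of a gene is the number of its sequence tags in a library, and the clean tags of the library are its depth. The depth was 5985925 clean tags in Dox+ and 5844314 in Dox−, of which 74.1% and 72.2% were counted for the genes of the table. Copies per 1000000 clean tags are written as TPM, which here carries no length correction. Fold changes are ratios of copies per clean tag, and the 95% intervals are exact Clopper-Pearson intervals for the part of the combined copies that came from Dox−. With 1 library per condition there is no replicate check, no test between the conditions was possible, and the intervals cover counting error only. Genes with at least 200 combined copies were called at a ratio of 1.5 or more in either direction, and "rose" and "fell" are used of these calls alone. Vegfa, the repressed gene, had 247 copies in Dox+ and 125 in Dox−, 1.93-fold lower (95% interval 1.55 to 2.41). All 6 uterine identity markers (Pgr, Esr1, Hoxa10, Hoxa11, Hoxd10 and Hand2) were in the table with at least 200 combined copies, but 5 of them differed. Hoxa10 fell from 3120 to 1060 copies, Hoxa11 from 2573 to 785 and Hand2 from 985 to 143, Pgr and Esr1 rose, and Hoxd10, with 401 and 381 copies, was not called. Whole uteri hold luminal and glandular epithelium, stroma, vessels and muscle, and a lower copy number from fewer cells of a type cannot be told apart from less RNA per cell.

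Forkhead proteins bind DNA through a winged-helix domain, SOX proteins through an HMG box that bends the helix, GATA proteins through zinc fingers and MSX proteins through a homeodomain. In the mouse uterus FOXA2 is a regulator of the glands, SOX17 acts in epithelium upstream of Indian hedgehog, GATA2 works with the progesterone receptor, and MSX1 marks the uterus as it approaches receptivity. FOXO1 acts in the decidual stroma, and FOXL2 and SOX9 are better known from the ovary and the testis, but both are also made in the reproductive tract.

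Sox17, Msx1 and Gata2, which had the most combined copies of the 46 genes, all fell. Of the 10 forkhead genes with enough copies, 6 rose and none fell. Among all genes with at least 200 copies, 15.2% rose and 14.7% fell. The 6 and the 10 include the noncoding Foxl2os beside its neighbour Foxl2. The Dox+ library held 7636 tags of the 46 genes and the Dox− library 5532, or 1276 and 947 TPM, a sum 1.35-fold lower in Dox− (95% interval 1.30 to 1.40). Sox17, Msx1 and Gata2 made up 59.3% of these tags in Dox+ and 29.0% in Dox−. The summed forkhead genes were 1.35-fold higher (1.27 to 1.44), the summed SOX genes 1.57-fold lower (1.48 to 1.66), the GATA genes 2.51-fold lower (2.21 to 2.86) and the MSX genes 2.10-fold lower (1.94 to 2.28). Sox17, Gata2 and Msx1 held most of the tags of their families in Dox+, so that these 3 sums follow them and do not describe the members one by one.

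**Figure D1:**
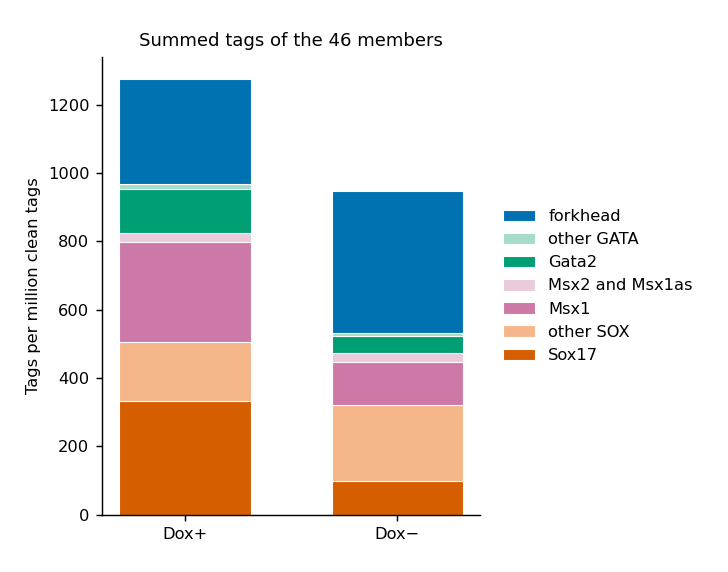
Stacked bars of the TPM (tags per 1000000 clean tags, vertical axis) of all 46 genes in the Dox+ and the Dox− library, 1 library each. The bars reach 1276 and 947, and the blocks of Sox17, Msx1 and Gata2 shrink while the forkhead block grows from 307 to 415.

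Of the 46 genes, 18 had at least 200 combined copies, from Sox17 with 2576 to Foxk1 with 208, and the next below the minimum was Foxo4 with 190. Of these 18, 8 rose, 3 fell and 7 were not called. The 8 higher are 44.4% of the 18, where 15.2% of all 6547 genes with this many copies were higher, and the 3 lower are 16.7%, where 14.7% of all genes were lower. At a fold change of 2, 2 of the 18 were higher and 3 lower (11.1% and 16.7%), beside 4.61% and 5.62% of all genes. The median log2 ratio of the 18, Dox− over Dox+, was 0.29, and that of all genes 0.03. The 10 forkhead genes among them, Foxl2os included, had a median log2 ratio of 0.67, with 6 higher and none lower. The 6 SOX genes had a median of 0.06, with 2 higher and 1 lower.

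**Figure D2:**
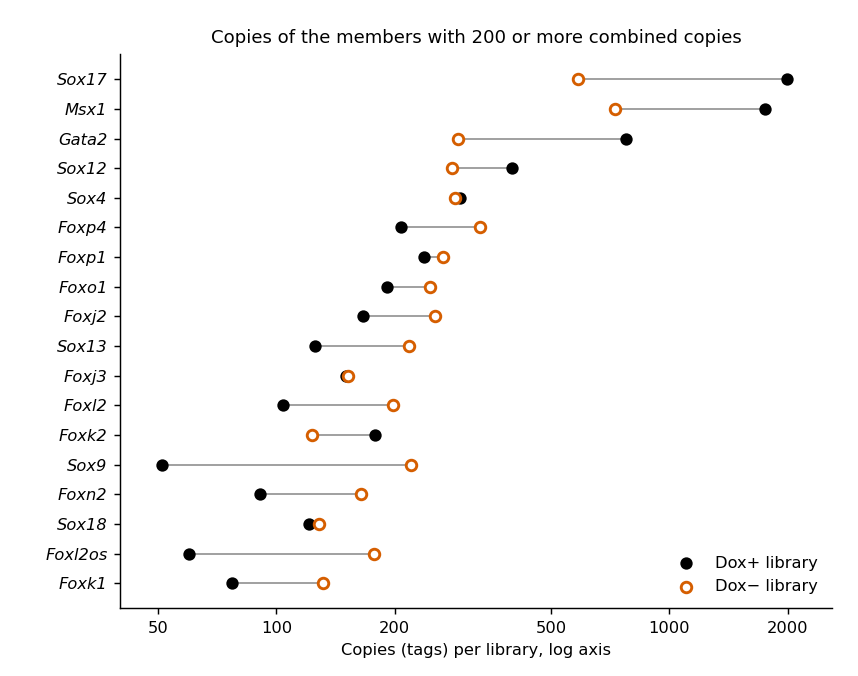
Copies in the Dox+ library (filled circles) and the Dox− library (open circles) on a log axis for the 18 genes with at least 200 combined copies, ordered by their sum. Sox17, Msx1 and Gata2 stand apart at the top with their open circles to the left, and Sox9 and Foxl2os show wide gaps with open circles to the right.

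MSX1 and MSX2 are homeodomain repressors, and the uterus lacking both fails to become receptive. Msx1 (chromosome 5, 38211724 to 38215822 on NCBIM37, the build called mm9, minus strand) had 1757 copies in Dox+ and 727 in Dox−. It was thus 2.36-fold lower in Dox− (95% interval 2.16 to 2.58). Msx2 (chromosome 13, 53562250 to 53568443, minus strand) had 36 copies in Dox+ and 104 in Dox−, 2.96-fold higher (2.01 to 4.45), though it was under the minimum of 200. The 2 paralogs therefore stood in opposite directions. Of the tags of Msx1 and Msx2 together, Msx2 held 2.01% in Dox+ (95% interval 1.41 to 2.77) and 12.5% in Dox− (10.3 to 15.0), so that Msx1 remained the main MSX transcript in both libraries.

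Msx1as is an RNA transcribed against Msx1 from within the same locus. It had 117 copies in Dox+ and 57 in Dox−, 2.0-fold lower (1.45 to 2.80), and it lay in the same direction as Msx1. Its share of the tags of the locus was 6.24% in Dox+ (5.19 to 7.44) and 7.27% in Dox− (5.55 to 9.32), and these intervals overlap. The paper describes a search of sense and antisense tags against the reference, but how tags of an overlapping pair were assigned is not given in the sources used here.

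GATA2 is the GATA factor of the uterine epithelium and stroma, and it also acts in endothelium, mast cells and blood progenitors. Gata2 (chromosome 6, 88143885 to 88157024, plus strand) had 778 copies in Dox+ and 290 in Dox−. It fell 2.62-fold (95% interval 2.29 to 3.01). Gata6, a factor of muscle, mesothelium and endoderm, had 73 and 40 copies, 1.78-fold lower (1.2 to 2.69). Gata3, known from T cells and innate lymphocytes, had 11 and 5 copies, and Gata5 had 5 and 2, too few to show a difference. No GATA gene was higher in Dox− in copies. Of the marker genes of mast cells and erythroid cells, Cpa3 had 66 copies in Dox+ and 9 in Dox−, Cma1 98 and 8, and Tpsb2 95 and 5, and of the erythroid genes Hba-a1, a globin, had 26 and 114, and Alas2, an enzyme of heme synthesis, 21 and 9. The mast cell genes Mcpt4 and Fcer1a had 28 and 0 and 9 and 2 copies. The 7 genes of that list in the table summed to 57.3 and 25.2 TPM. That sum mixes mast cell genes with erythroid genes, of which Hba-a1 went the other way. The part of these genes in the Gata2 difference was not tested.

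SOX17, SOX7 and SOX18 form the SOXF group, which is known for its role in the endothelium of arteries and lymphatic vessels. Sox17 (chromosome 1, 4481009 to 4486494, minus strand) had 1991 copies in Dox+, the most of all 46 genes, and 585 in Dox−. This was a 3.32-fold fall (95% interval 3.03 to 3.65). Sox7 (chromosome 14, 64562511 to 64569569, plus strand) had 25 copies in Dox+ and 147 in Dox−, 6.02-fold higher (3.92 to 9.61), with 172 combined copies. Sox18 (chromosome 2, 181404541 to 181406345, minus strand) had 121 and 128 copies, a ratio of 1.08 (0.84 to 1.40). One SOXF gene was thus lower, one higher, and the third without a difference beyond counting error. Of the SOXF tags, Sox17 held 93.2% in Dox+ and 68.0% in Dox− (64.8 to 71.1), Sox7 1.17% (0.76 to 1.72) and 17.1% (14.6 to 19.8), and Sox18 5.66% (4.72 to 6.73) and 14.9% (12.6 to 17.4).

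Many markers of the cells that make SOXF factors differed as well, but not all. The 13 endothelial marker genes in the table summed to 330 TPM in Dox+ and 224 in Dox−, 1.47-fold lower. None of them had an interval above 1, and 7 had one below 1. Of the 6 with at least 200 copies, 4 fell and 2 were not called, where 14.7% of all genes with this many copies fell. Cdh5, an endothelial cadherin, fell from 446 to 216 copies, Tie1 from 191 to 100 and Egfl7 from 255 to 140. The 2 not called, named after their values were seen, were Pecam1, with 243 and 253 copies, and Vwf, with 177 and 148. The 12 epithelial marker genes summed to 1407 and 1961 TPM, 1.39-fold higher. Of these 12, 5 rose and 2 fell, beside 15.2% and 14.7% of all genes. Elf3, an epithelial transcription factor, rose from 185 to 1083 copies and Krt7 from 179 to 600, while the claudin Cldn3 fell from 1482 to 494 and Cldn4 from 149 to 65. Krt19, with the most copies, had 1554 and 2046 and was not called. The part of either cell type in the ratios of Sox17, Sox7 and Sox18 was not tested.

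SOX9 belongs to the SOXE group and is made in glandular epithelium. Sox9 (chromosome 11, 112643538 to 112649074, plus strand) had 51 copies in Dox+ and 220 in Dox−. It rose 4.42-fold (95% interval 3.25 to 6.12), the largest rise among the 18 genes with enough copies. Sox10, the SOXE factor of Schwann cells and other neural crest derivatives, had 0 and 4 copies. By counting error a 0 in Dox+ allows up to 0.616 TPM (upper end of the 95% Poisson interval). The removal of tags seen once may allow more. Of the 8 genes listed as Schwann cell markers, 2 had at least 200 copies, and of these Ngfr, which is not particular to these cells, rose from 626 to 1772 and Pmp22 fell from 704 to 319.

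The SOXC genes encode activators of progenitor cells, and the SOXD genes encode proteins that lack an activation domain. Sox4 had 293 copies in Dox+ and 285 in Dox−, a ratio of 0.996 (0.843 to 1.18). Sox12 had 397 and 280 copies, 1.38-fold lower (1.18 to 1.62), so that its interval lay below 1 without reaching the fold of the call. Sox11 had 4 and 9 copies. Of the SOXD genes, Sox13 (chromosome 1, 135278880 to 135320954, minus strand) had 125 copies in Dox+ against 217 in Dox−, a rise of 1.78-fold (1.42 to 2.23), while Sox5 had 11 and 5 copies and Sox6 2 and 0. Sox2 had 2 and 0 copies, and Sox30 0 and 2, too few to compare.

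**Figure D3:**
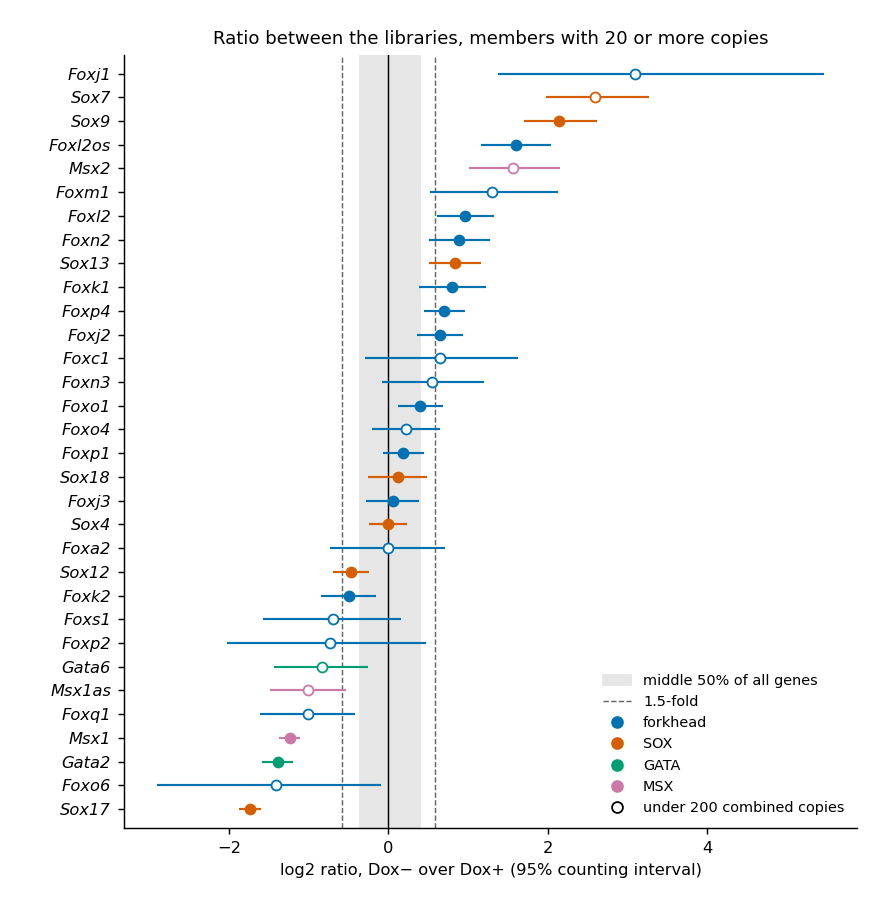
The log2 ratio of Dox− over Dox+ with its 95% counting interval for the 32 genes with at least 20 combined copies, coloured by family and filled from 200 copies on. The grey band holds the middle 50% of the 6547 genes with at least 200 copies (-0.36 to 0.40) and the dashed lines mark 1.5-fold, and the filled forkhead points (blue) lie at or to the right of -0.50 while Sox17, Gata2 and Msx1 lie left of -1.

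FOXL2 keeps the identity of granulosa cells in the ovary and is also made in uterine stroma and muscle. Foxl2 (chromosome 9, 98856026 to 98858545, plus strand) had 104 copies in Dox+ and 198 in Dox−. It rose 1.95-fold (95% interval 1.53 to 2.50). Foxl2os (chromosome 9, 98849574 to 98855729, minus strand), a long noncoding RNA transcribed away from Foxl2, had 60 copies in Dox+ and 177 in Dox−, a rise of 3.02-fold (2.24 to 4.12). Both members of the pair were higher, and their intervals overlap. Foxl2os held 36.6% of the tags of the pair in Dox+ (29.2 to 44.5) and 47.2% in Dox− (42.1 to 52.4). Of the 8 listed markers of ovarian granulosa and luteal cells, 2 were in the table, Star with 12 and 13 copies and Inha with 0 and 2, so these ovarian markers were at or near 0 in both libraries.

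The 296 bases that separate the starts of these 2 genes are shown because the pair rose together. The next sequences are the 250 bases before the annotated starts of Sox17 and Msx1, which had the most copies and fell, and of Sox9 and Sox7, which had the largest ratios in the other direction among the SOX genes with at least 20 combined copies. All were read from the NCBIM37 genome at the starts of the GENCODE M1 annotation, each 5′ to 3′ on the strand of the gene, and the Foxl2os to Foxl2 stretch on the plus strand. Capitals mark matches, on either strand, to a GATA motif (AGATAA or TGATAA), a forkhead motif (TGTTTAC or TGTTTGC), a SOX motif (ACAATG or ACAAAG) or a homeodomain motif (CAATTA).
Foxl2os to Foxl2, chr9:98855730-98856025: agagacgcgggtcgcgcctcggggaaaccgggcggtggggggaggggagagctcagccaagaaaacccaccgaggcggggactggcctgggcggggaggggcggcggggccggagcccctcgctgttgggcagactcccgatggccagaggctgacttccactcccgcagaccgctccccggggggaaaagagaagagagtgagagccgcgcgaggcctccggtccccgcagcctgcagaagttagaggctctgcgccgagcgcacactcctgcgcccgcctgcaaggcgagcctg
Sox17, chr1:4486495-4486744, minus strand: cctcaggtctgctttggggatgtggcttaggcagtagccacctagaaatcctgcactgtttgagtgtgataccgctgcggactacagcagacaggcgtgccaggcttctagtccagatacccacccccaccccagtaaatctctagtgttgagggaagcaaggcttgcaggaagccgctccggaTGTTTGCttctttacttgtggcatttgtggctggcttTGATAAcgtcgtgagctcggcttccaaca
Msx1, chr5:38215823-38216072, minus strand: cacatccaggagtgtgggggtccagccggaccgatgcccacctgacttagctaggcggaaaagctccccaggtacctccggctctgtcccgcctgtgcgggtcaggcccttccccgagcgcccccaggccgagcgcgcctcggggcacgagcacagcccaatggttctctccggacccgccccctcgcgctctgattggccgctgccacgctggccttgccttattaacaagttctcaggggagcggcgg
Sox9, chr11:112643288-112643537, plus strand: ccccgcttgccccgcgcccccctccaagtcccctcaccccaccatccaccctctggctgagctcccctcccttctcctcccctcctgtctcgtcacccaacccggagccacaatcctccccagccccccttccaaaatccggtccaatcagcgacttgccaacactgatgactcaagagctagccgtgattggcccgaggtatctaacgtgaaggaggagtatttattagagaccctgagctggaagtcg
Sox7, chr14:64562261-64562510, plus strand: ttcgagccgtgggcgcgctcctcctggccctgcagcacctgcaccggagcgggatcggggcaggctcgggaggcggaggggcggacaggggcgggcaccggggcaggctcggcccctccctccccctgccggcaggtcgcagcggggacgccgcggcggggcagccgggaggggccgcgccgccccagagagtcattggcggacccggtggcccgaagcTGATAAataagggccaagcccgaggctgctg

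The stretch between Foxl2os and Foxl2 was 72% G and C and overlapped no annotated gene. The Sox17 window was 54.0% G and C, the Msx1 window 68.4%, the Sox9 window 60.8% and the Sox7 window 76.8%. The Sox17 window held a forkhead match and a GATA match, whose first bases lay 66 and 29 bases before the start, and the Sox7 window held a GATA match 31 bases before the start. The other 3 sequences held no match to these letters. Windows of this length before 22367 protein-coding genes were searched in the same way. A GATA match lay in 15.5% of them, a forkhead match in 6.6%, a SOX match in 22.8% and the homeodomain letters in 6.7%. The matches are given as a description only.

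The FOXP proteins are repressors that act in lung, heart, neurons and lymphocytes. Foxp4 (chromosome 17, 48004082 to 48061594, minus strand) had 208 copies in Dox+ and 330 in Dox− and rose 1.62-fold (95% interval 1.36 to 1.94). Foxp1 had 238 and 265 copies, a ratio of 1.14 (0.95 to 1.36). Foxp2 had 17 and 10 copies, and Foxp3, the factor of regulatory T cells, 4 and 3. The 10 lymphocyte marker genes were also low, with 43 copies at most, and summed to 27.7 and 23.3 TPM.

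Among the FOXJ genes, Foxj2 (chromosome 6, 122769932 to 122795384, plus strand) had 166 copies in Dox+ against 254 in Dox−, a rise of 1.57-fold (1.28 to 1.92). Foxj3 had 150 and 152 copies, a ratio of 1.04 (0.82 to 1.31). Foxj1, the master factor of motile cilia, had 3 copies in Dox+ and 25 in Dox−, a ratio of 8.54 with a wide interval of 2.60 to 44.2. The 5 listed markers of oviduct and ciliated cells in the table went in different directions. Pax8 rose from 114 to 207 copies, and Tppp3, with the most copies, had 686 and 680, while Ovgp1 had 25 copies in Dox+ and 2 in Dox−, Rsph1 24 and 8 and Tekt1 6 and 0. Their part in the Foxj1 ratio was not tested.

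FOXK1 and FOXK2 are paralogs that repress autophagy genes and promote glycolysis. Foxk1 (chromosome 5, 142877451 to 142937968, plus strand) had 77 copies in Dox+ and 131 in Dox−, a rise of 1.74-fold (95% interval 1.31 to 2.34). Foxk2 had 178 and 123 copies, 1.41-fold lower (1.12 to 1.79), and was not called. Foxk1 held 30.2% of the tags of both genes in Dox+ (24.6 to 36.2) and 51.6% in Dox− (45.2 to 57.9), while their sum hardly moved, with 255 and 254 copies. Foxn2, of the FOXN group (chromosome 17, 88840051 to 88889873, plus strand), had 91 copies in Dox+ against 164 in Dox−, a rise of 1.85-fold (1.42 to 2.41), and Foxn3 had 37 and 53 copies, a ratio of 1.47 (0.95 to 2.30).

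FOXO proteins are held out of the nucleus by insulin and growth factor signaling, and FOXO1 drives genes of the decidua. Foxo1 had 191 copies in Dox+ and 246 in Dox−, a ratio of 1.32 (95% interval 1.09 to 1.6) that did not reach the fold of the call. Foxo4 had 89 and 101 copies, a ratio of 1.16 (0.87 to 1.56), Foxo6 19 and 7, a ratio of 0.38 (0.13 to 0.94), and Foxo3 0 and 2. Foxo1 and Foxo4 thus held most of the FOXO tags in both libraries.

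Foxa2, the gene of gland formation, had 35 copies in Dox+ and 34 in Dox−, a ratio of 0.995 (95% interval 0.602 to 1.64). No difference was detectable at this depth, and the interval still holds a change of 1.5-fold in either direction. Foxm1, a driver of mitotic genes, had 20 and 48 copies, 2.46-fold higher (1.43 to 4.37). Foxq1, known from epithelia, had 76 and 37 copies, 2.01-fold lower (1.34 to 3.06). Foxs1, found in pericytes, had 33 and 20 copies, and Foxc1, of vessels and mesenchyme, 17 and 26, with intervals that hold 1.

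In all, 14 genes had at least 20 but fewer than 200 combined copies. The interval lay above 1 for 4 of them (Sox7, Msx2, Foxj1 and Foxm1) and below 1 for another 4 (Msx1as, Gata6, Foxq1 and Foxo6), which is 28.6% each. Of all 5532 genes with that many copies, 21.1% had an interval above 1 and 20% one below 1. The last 14 genes had 2 to 19 combined copies, and each of their intervals held 1. The authors removed tags seen once, and no gene of the table has exactly 1 copy.

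Levels of different genes were compared as TPM per kilobase of the longest annotated transcript, a correction that would not be needed if each transcript gave 1 tag. In Dox+ the order was Msx1 with 152 (95% Poisson interval 145 to 159), Sox17 with 106 (102 to 111), Gata2 with 40.1 (37.3 to 43) and Sox12 with 15.9 (14.4 to 17.5). These 4 intervals do not overlap, whereas that of the next gene, Sox18 with 12.5 (10.4 to 14.9), overlaps both that of Sox12 and that of Sox4 with 10.2 (9.07 to 11.4). Without the length correction Sox17 stood above Msx1, with 333 and 294 TPM. In Dox− the order began with Msx1 at 64.3 (59.7 to 69.1) and Sox17 at 32.0 (29.4 to 34.7), and Gata2 at 15.3 (13.6 to 17.2) could not be separated by counting error from Foxp4 at 14.1 (12.6 to 15.7), Sox18 at 13.5 (11.3 to 16.1) or Foxl2 at 13.4 (11.6 to 15.5). The distance between the leading genes and the rest was therefore smaller in Dox−.

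Of the 18 genes with at least 200 copies, Foxp4, Foxj2, Foxn2, Foxo1 and Foxj3 overlap an annotated gene on the opposite strand, and Foxp1 and Foxk2 one on the same strand. Sox17, Msx1, Gata2, Sox12, Sox13, Sox9, Sox18, Foxl2, Foxl2os and Foxk1 overlap none in this annotation, which holds no entry named Msx1as, and Sox4 was not placed. The Sox9 window shown above lies within the annotated transcript BC006965.

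Genes that act with these factors or are known as their targets were followed with 7 hand-written lists. For FOXM1, 19 target genes of mitosis were in the table, and all 8 with at least 200 copies rose, with a median log2 ratio of 1.09. Over all 19, 17 had an interval above 1 and none below. Plk1, a mitotic kinase, rose from 50 to 226 copies, Kif20a, a kinesin of cytokinesis, from 73 to 183, Cenpa, the centromeric histone, from 108 to 239, and Cdk1, with the most copies, from 355 to 639. A median of a list describes these libraries, and a rise of mitotic genes in them was already known when the list was written.

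In the progesterone and hedgehog list 6 of 11 genes fell and 2 rose, beside 14.7% and 15.2% of all genes. The median log2 ratio of the 11 was -1.52. Ihh, the Indian hedgehog ligand of the epithelium, fell from 646 to 37 copies, 17.0-fold (95% interval 12.2 to 24.4). Hand2, a stromal transcription factor induced by progesterone, fell from 985 to 143, Fkbp5 from 190 to 45 and Hoxa10, with the most copies, from 3120 to 1060. The 2 that rose, named after their values were seen, were the receptors Pgr, from 687 to 1251 copies, and Esr1, from 165 to 262. Sox17, Gata2 and Msx1 were thus lower in the same library as Ihh and Hand2, and higher copies of the progesterone receptor were counted there.

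Of 14 genes listed for FOXA2 and the glands, 10 were in the table. Among these, 6 had at least 200 copies, of which 4 rose and 1 fell, beside 15.2% and 14.7% of all genes. The median log2 ratio of the 6 was 1.47. The list is not confined to glands, since it shares Cdh1 with the markers of luminal and glandular epithelium. Its counts and median therefore describe the list and are not a measure of the glands. Lif, named after its values were seen, had 8 and 9 copies. Whether these genes depend on Foxa2 in these uteri was not tested. Lcn2, a lipocalin secreted by epithelium, rose from 27 to 935 copies and Wnt7a, an epithelial WNT, from 48 to 273. Ltf, lactoferrin, which also had the most copies, rose from 905 to 2639. Muc1, named after its values were seen, rose from 260 to 650. The 1 that fell, named after its value was seen, was Cxcl15, from 254 to 134 copies. Foxa2 itself did not differ beyond counting error, as given above.

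The MSX list of BMP and WNT genes had 5 lower and 1 higher of 11, beside 14.7% and 15.2% of all genes. Its median log2 ratio was -0.58. Lef1, a WNT effector, fell from 210 to 9 copies and Id2, a BMP target with the most copies of the list, from 1933 to 888. Dlx5, another homeobox gene, rose from 57 to 143. In the FOXO list 3 of 11 genes rose and 5 fell, beside the same 15.2% and 14.7%, with a median of -0.30. Klf4 rose from 86 to 279 copies, while Sesn1 fell from 316 to 102, Txnip from 1586 to 712 and Map1lc3b, with the most copies, from 2209 to 1175.

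GATA cofactors and partners were followed with 11 genes, of which 3 had an interval above 1 and 1 below. So few genes do not set the list apart from all genes, whose shares are given above. Of 4 genes with enough copies, Trps1, an atypical GATA-type repressor, rose from 168 to 258 copies, 1.57-fold (1.29 to 1.92), and Ldb1, with the most copies, had 476 and 494. The median log2 ratio of the 4 was 0.30. The FOG proteins, which bind GATA factors directly, are encoded by Zfpm1, with 80 and 77 copies, and Zfpm2, with 21 and 27. Runx1, a partner in blood cells named after its values were seen, had 20 and 74 copies, and Cbfa2t3 had 71 and 43. Of 9 cartilage matrix genes that SOX9 and SOX5/6 are known to drive, 4 were in the table and 1, Col11a1, had enough copies, with 230 and 178, not called. Of the other 3, Acan and Col11a2 had no tag in Dox+ and 2 in Dox−, and Hapln1 had 29 and none.

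**Figure D4:**
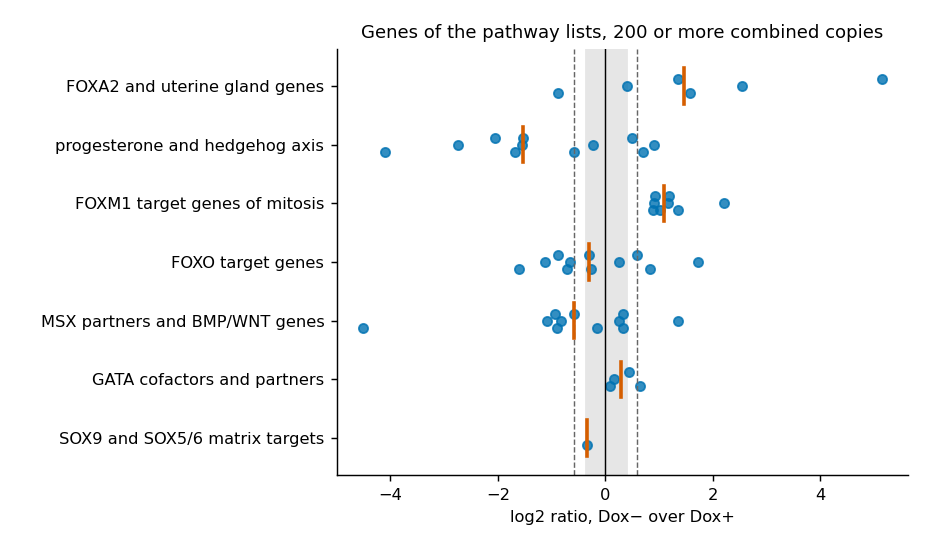
Each point is the log2 ratio of Dox− over Dox+ of a gene with at least 200 combined copies, by pathway list, with the list's median as an orange bar, the middle 50% of all genes as a grey band and 1.5-fold as dashed lines. All 8 points of the FOXM1 list lie right of the band, and Ihh and Lef1 lie farthest to the left.

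Markers of further cell types also differed between the libraries. The 9 smooth muscle genes summed to 6539 TPM in Dox+ and 4507 in Dox−, 1.45-fold lower. Of the 8 with at least 200 copies, 4 fell and none rose, where 14.7% of all genes fell and 15.2% rose. Among the 4 were Smtn, from 1698 to 877 copies, Lmod1, from 198 to 104, and Des, from 4647 to 2578. Tagln, with the most copies, had 11417 and 8854. The 5 mesothelial genes summed to 74.0 and 31.8, with Wt1 falling from 325 to 157, and the 5 lymphatic genes to 43.4 and 24.5, with Pdpn at 114 and 55 copies. The 6 leukocyte genes summed to 80.5 and 118, and 4 of them had an interval above 1 and none below. Ptprc, the common leukocyte antigen, had 49 and 130 copies, Itgam 45 and 97, Emr1 70 and 102 and Lyz2 127 and 169, while Csf1r, with the most copies, had 186 and 181. The part of cell composition in the ratios of the 46 transcription factor genes was not tested.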

How the data were processed

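Total RNA from 3 pooled uteri per condition was profiled by DGE in 1 Dox+ and 1 Dox− library. The deposited counts are copy numbers, the clean tags that the authors assigned to each gene with mouse reference mRNAs of build mm9. Adaptor-only tags, low quality tags and tags seen once had been removed, and the paper annotated unambiguous tags. It reports a larger share of clean tags as unambiguously mapped than the 74.1% and 72.2% counted here. The source of that difference is not given in the sources used here. The labels name CASAVA, and the aligner and the restriction enzyme are not given in the sources used here. The labels mention fragmentation of mRNA, the paper tag profiling, and this was not resolved. The deposited TPM are copies per 1000000 clean tags, uncorrected for transcript length, and 0.01 stands for 0 copies. They served to recover the clean tags of each library. Deposited ratios, log2 ratios, P-values and FDR hold the authors' own comparison and were not used.

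Members were matched by symbol, with earlier results of these data known when the members, the 7 pathway lists and the 12 marker lists were chosen. Named are all members with at least 200 combined copies, other members whose interval excludes 1, and of each list the 3 called genes with the largest ratio and the gene with most copies. Further low members, and some other genes of the lists, are named with their copies. A few marker genes that this rule would name are not reported here. The alternatives were combined copies of at least 100 or 20, library sizes from summed copies, TMM or median ratios, a pseudocount of 1 and a fold of 2. Intervals were tried on simulated libraries that held counting error alone, which tells nothing about variation between pools. Python 3.11.15, numpy 2.4.6, scipy 1.17.1, pandas 2.3.3, matplotlib 3.10.9, R 4.3.3 and edgeR 4.0.16 (TMM factors alone) were used. Positions of 44 of the 46 genes and transcript lengths are from GENCODE M1 on NCBIM37.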

Additional observations from a re-analysis of the deposited data

How the results depend on the processing

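The scalings shifted every log2 ratio by 0.04 (summed copies), -0.02 (TMM) and -0.03 (median ratios). Under none of them nor with a pseudocount of 1 did a called member change direction. Changes this small could not reverse a member called at 1.5-fold, so this is no check of the directions. In the lists, TMM and median ratios each gave 2 FOXO targets higher in place of 3, 6 MSX partners lower in place of 5 and 7 progesterone and hedgehog genes lower in place of 6. At combined copies of at least 100 there were 10 members higher and 6 lower, and at least 20 gave 13 higher and 9 lower, because more members entered. At a fold of 2, 2 were higher. For the lists, a minimum of 100 gave 2 gland genes lower, 15 FOXM1 targets higher, 5 FOXO targets higher, 2 MSX partners higher and 1 GATA cofactor lower. A minimum of 20 gave 2 gland genes lower, 18 FOXM1 targets higher, 6 FOXO targets higher, 2 MSX partners higher, 2 GATA cofactors higher and 1 lower, 1 SOX matrix target lower and 11 progesterone and hedgehog genes lower. Without Msx1as and Foxl2os, a choice made after seeing the data, 7 members were higher and 3 lower. The median log2 ratio of the members was then 0.19, and the summed forkhead genes were 1.30-fold higher. No paired analysis was possible because each group is 1 library. The variation between pools cannot be estimated from these libraries.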

Other observations

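Foxo3 had no tag in Dox+ and 2 in Dox−, beside 191 and 246 of its relative Foxo1. Foxo3 was singled out after its values were seen, and whether its transcripts yielded tags that match 1 gene alone was not tested.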
